A study of Mus musculus with 2 samples.

Results

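Potassium channels form a large family of ion channel genes, and most of their mouse symbols begin with Kcn. Described here are the 72 rows whose symbol begins with Kcn and that were listed in both count tables, of 16859 genes listed in both; the long non-coding RNA Kcnq1ot1, which names a channel locus and codes for no channel, was left out of the 73 such rows. By symbol, 29 code for the pore of voltage-gated channels, 8 for accessory subunits of voltage-gated channels, 8 for calcium- or sodium-activated pores, 2 for accessory subunits of the calcium-activated channel Kcnma1, 12 for inward rectifiers and 9 for two-pore-domain channels. The other 4 are Kcnrg, a regulator of voltage-gated channels, and the opposite-strand RNAs Kcnd3os, Kcnmb4os2 and Kcnab3os.

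The samples were glioma cells of C57BL/6 mice. PDGFB, a ligand of the receptor Pdgfra, had been transferred in utero into the embryonic telencephalon, and GFP-positive cells were sorted from the tumours of mice about 40 days old. Both libraries belong to 1 group with no controls; each of them, called pool 1 and pool 2 here, holds cells that were mixed from 2 tumours ahead of droplet capture. The tumours of a pool cannot be told apart, and the labels do not say that they came from separate animals. P-values therefore speak for these 2 pools only. In the tests between clusters they measure how far the differences between clusters vary between the pools, which may be technical. The mean difference between the pools is taken out there as a block. After filters on genes per cell and mitochondrial share, 3506 and 3278 cells remained, with medians of 7440 and 11272 unique molecular identifiers (UMIs) per cell and 33429361 and 40475642 UMIs in all.

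In glia and neurons, potassium channels set the resting potential, end the action potential and clear potassium from the extracellular space. Voltage-gated channels are tetramers that open on depolarization, and Kcnip and Kcnab proteins bind to them and tune them; inward rectifiers pass current best near rest; two-pore-domain channels carry the leak current. Oligodendrocyte precursors are known for A-type and delayed-rectifier potassium currents, which shrink as they mature, while the inward rectifier Kcnj10 is kept.

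What the pore genes share is the selectivity filter, the loop that lets potassium pass and holds sodium back. A run of 5 codons marks it in the coding strand: a threonine or serine codon (ACN, TCN or AGN; AGN also takes in some arginine codons), any codon, and then GGNTANGGN or GGNTTNGGN, read in frame on each gene's longest coding sequence (GENCODE vM21, build GRCm38). Every one of the 58 pore-forming genes held it, and none of the 11 accessory or regulatory genes with a coding sequence did, against 3.36% of 21490 other protein-coding genes. Of the 9 two-pore-domain genes, 7 held it 2 or more times, as did 1 of 29 voltage-gated genes (Kcna6). A match says only that these letters are there. The sequences below are 45 bases around the signature, which is in capitals, for the genes on which the results turn: the A-type pair Kcnd2 and Kcnd3, both sites of the leak channel Kcnk2, the G-protein-gated inward rectifier Kcnj3, and the delayed rectifiers Kcna1 and Kcna2.
Kcnd2: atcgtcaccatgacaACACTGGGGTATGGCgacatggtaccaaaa
Kcnd3: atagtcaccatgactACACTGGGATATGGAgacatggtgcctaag
Kcnk2 site 1: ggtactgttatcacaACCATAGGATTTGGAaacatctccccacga
Kcnk2 site 2: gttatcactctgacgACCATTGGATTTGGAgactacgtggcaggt
Kcnj3: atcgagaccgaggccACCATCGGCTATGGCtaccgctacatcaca
Kcna1: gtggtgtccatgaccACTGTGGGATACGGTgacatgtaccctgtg
Kcna2: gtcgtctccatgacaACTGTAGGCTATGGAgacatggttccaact
In Kcnd2 (chr6:21217391-21714156, plus strand), Kcnd3 (chr3:105459899-105658632, plus strand) and both sites of Kcnk2 (chr1:189258876-189295615 and chr1:189243025-189256610, minus strand) the 45 bases are split by an intron, so the positions run from the first to the last base. They lie within 1 exon in Kcnj3 (chr2:55437612-55437656, plus strand), Kcna1 (chr6:126642213-126642257, minus strand) and Kcna2 (chr3:107105209-107105253, plus strand). Kcnd2 and Kcnd3 are identical at 38 of the 45 bases, Kcna1 and Kcna2 at 31, and the 2 sites of Kcnk2 at 27.

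Levels are given in CPM, the UMIs of a gene scaled to the usual fixed total over all UMIs of the kept cells of a pool. A 3′ library counts each RNA molecule once, so CPM was not scaled by gene length. The part of gene length in levels set side by side was not tested. Together the 72 genes made up 0.203% of UMIs in pool 1 and 0.208% in pool 2, which is 2033 and 2078 CPM. Voltage-gated pore genes held 42.4% and 42.8% of these UMIs, and their accessory subunits 22.1% and 23.2%. Two-pore-domain genes held 17.4% and 15.9%, inward rectifiers 11.9% and 11.4%, and calcium- or sodium-activated pores 4.10% and 4.27%. A few genes carried the family: the 5 highest held 54.9% and 53.3% of its UMIs and the 20 highest held 91.9% in each pool. At least 10 CPM was reached by 22 members in both pools, and 16 stayed under 1 CPM in both. The median member stood at 4.59 and 4.35 CPM, below the median of all genes at 15 and 14.3 CPM.

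Kcnip3, a calcium-binding partner of Kcnd channels also known as a transcriptional repressor, had the highest level in the family, 394 CPM in pool 1 and 391 in pool 2 (393 ± 1.99, SD, n = 2; exact 95% Poisson intervals 387 to 401 and 385 to 397). Next came Kcnd2, an A-type pore subunit, at 222 and 221 CPM, and its close relative Kcnd3 at 121 in both, so that both pore genes and their calcium-binding partner were among the 5 highest. Kcnip3 lies on chr2:127456498-127522094, Kcnd2 on chr6:21215503-21729805 and Kcnd3 on chr3:105452330-105674002. The 2 other members above 100 CPM in both pools were Kcnk2, a stretch- and lipid-gated leak channel, at 192 and 198 CPM, and Kcnj10, the main inward rectifier of glia, at 187 and 176 CPM.

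The delayed rectifiers followed. Kcna1 stood at 67.3 and 95 CPM, Kcna2 at 80.0 and 63.7, and Kcna6 at 50.2 and 50.7. The fast-gating Kcnc1 reached 45.3 and 37.0, and the M-current gene Kcnq3 reached 45 and 36.3. Kcnh8, an Elk-type channel, stood at 22.4 and 22.7. Of the leak channels, Kcnk10, the closest relative of Kcnk2, stood at 84.9 and 57.2 and Kcnk1 at 57.6 and 55.7; among the rest were the large-conductance calcium-activated Kcnma1 at 55.1 and 62.0 with its accessory Kcnmb4 at 27.9 and 31.7, Kcnip1 at 32.6 and 68.5, and Kcnj16, a partner of Kcnj10, at 37.0 and 47.4 CPM.

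Several members known from other cell types were low. The microglial leak channel Kcnk13 stood at 7.28 and 7.54 CPM, the small-conductance calcium-activated Kcnn2 at 6.74 and 6.80 and Kcnn3 at 3.90 and 3.06, and the cardiac delayed rectifier Kcnh2 at 4.65 and 5.14. Kcnn4 and Kcna3, known from lymphocytes and microglia, stood at 1.08 and 1.38, and at 1.17 and 0.914. Kcna5 was at 2.04 and 0.667, Kcnj2 at 0.450 and 0.420, and the vascular Kcnj8 at 0.210 and 0.0989 CPM.

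**Figure D1:**
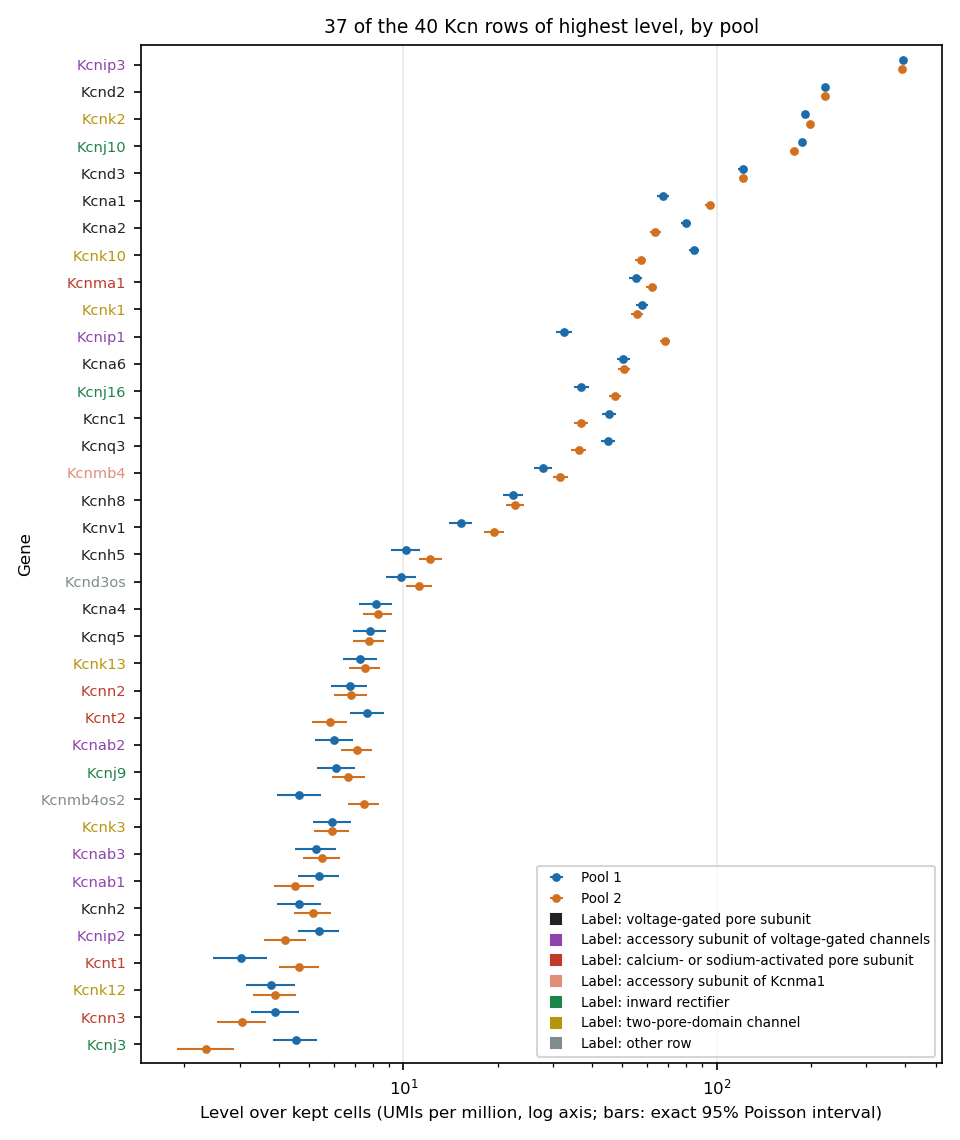
Level of 37 of the 40 highest Kcn rows in CPM on a log axis, with 1 point per pool and exact 95% Poisson intervals; label colour gives the role of the gene. Kcnip3, Kcnd2, Kcnk2, Kcnj10 and Kcnd3 lie above 100 CPM in both pools, and Kcnip1 shows the widest gap between pools among those drawn that reach 10 CPM in both.

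The pools differed little for most members. Of 63 members with at least 20 UMIs over both pools, 4 differed by more than 2-fold, where 5.27% of all 15335 such genes did. Kcnip1 was 2.10-fold higher in pool 2. Kcna5 was 3.05-fold higher in pool 1, Kcnj6 2.04-fold and Kcnk5 6.87-fold, the last on 17 and 3 UMIs. With 1 library per pool these differences have no test.

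To set cells of unequal depth side by side, each cell with at least 2000 UMIs was thinned to 2000. A mean of 3.76 members per cell then had a UMI in pool 1 and 3.65 in pool 2, and 3.15% and 3.06% of cells had none. Kcnip3 was found in 53.1% and 51.5% of thinned cells (exact Clopper-Pearson 95% intervals 51.4 to 54.9 and 49.6 to 53.3), Kcnd2 in 37.6% and 33.8%, Kcnj10 in 34.1% and 31.4%, Kcnk2 in 32.5% and 33.4%, and Kcnd3 in 24.2% and 23.7%. Without thinning, Kcnip3 was found in 81.0% and 82.1% of kept cells. In all, 12 members were found in at least 10% of thinned cells in both pools.

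Some members share neighbours in the genome, which bears on whose reads are counted. Kcnj10 and Kcnj9 lie 11.9 kb apart with 182 and 6.39 CPM (mean of the pools), Kcna1 and Kcna6 61.9 kb apart with 81.1 and 50.5, with Kcna5 at 1.35 CPM on the other side of Kcna1 at 105 kb, Kcna2 and Kcna3 63.1 kb apart with 71.9 and 1.04, and Kcnj16 and Kcnj2 38.2 kb apart with 42.2 and 0.435. High and low members thus stood side by side at all 4 of these loci. Kcnd3 overlaps Kcnd3os by 626 bases, Kcnmb4 overlaps Kcnmb4os2 by 716 and Kcnab3 overlaps Kcnab3os by 2298 on the opposite strand. The sources used here do not say whether counting used strand, so reads of these pairs cannot be told apart. Kcnd3 and Kcnk2 each also overlap 1 listed gene on their own strand, so that some of their reads may have been assigned to that gene or left out.

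Cells were clustered without any Kcn gene, on counts drawn at random from each cell, and the counts not drawn were used for tests. This gave 14 clusters, of which 12 had at least 20 cells in each pool. Cluster 10, with 62 and 38 cells, was committed-precursor-like: Enpp6, Bmp4 and Mycl, markers of precursors on the way to oligodendrocytes, were among its 10 leading genes, its 8 committed markers summed to 7737 and 6844 CPM against 760 and 669 in the other glioma clusters, and its oligodendrocyte markers to 9837 and 10745 CPM. Cluster 12, with 13 and 14 cells, was microglia-like, and cluster 13, with 4 and 19 cells, oligodendrocyte-like; both were too small to test. The others are described by number and leading genes. In all clusters but 12 and 13 the 8 oligodendrocyte precursor markers (Pdgfra, Olig2 and others) summed to at least 4997 CPM over both pools.

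Of the 72 members, 41 passed the filter on low counts and were tested; the other 31 had at most 349 UMIs each. In edgeR's quasi-likelihood test each of the 12 clusters was set against the mean of the remaining 11, all weighted alike, with the pool as a block and p-values adjusted over 10895 genes. Over the 12 comparisons, 79 of 492 values were called higher and 36 lower, 23.4% in all, where 17.4% were called over all genes (10.8% higher and 6.58% lower). These comparisons share libraries, so calls in different clusters are not independent. Called in at least 1 cluster were 37 members, while Kcnab1, Kcnab3, Kcnk13 and Kcnt2 were called in none. The share of all genes called in at least 1 cluster was not counted, and 54.3% of all genes were called in cluster 1 alone. Kcnma1 and Kcnq3 were called in 6 clusters each.

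**Figure D2:**
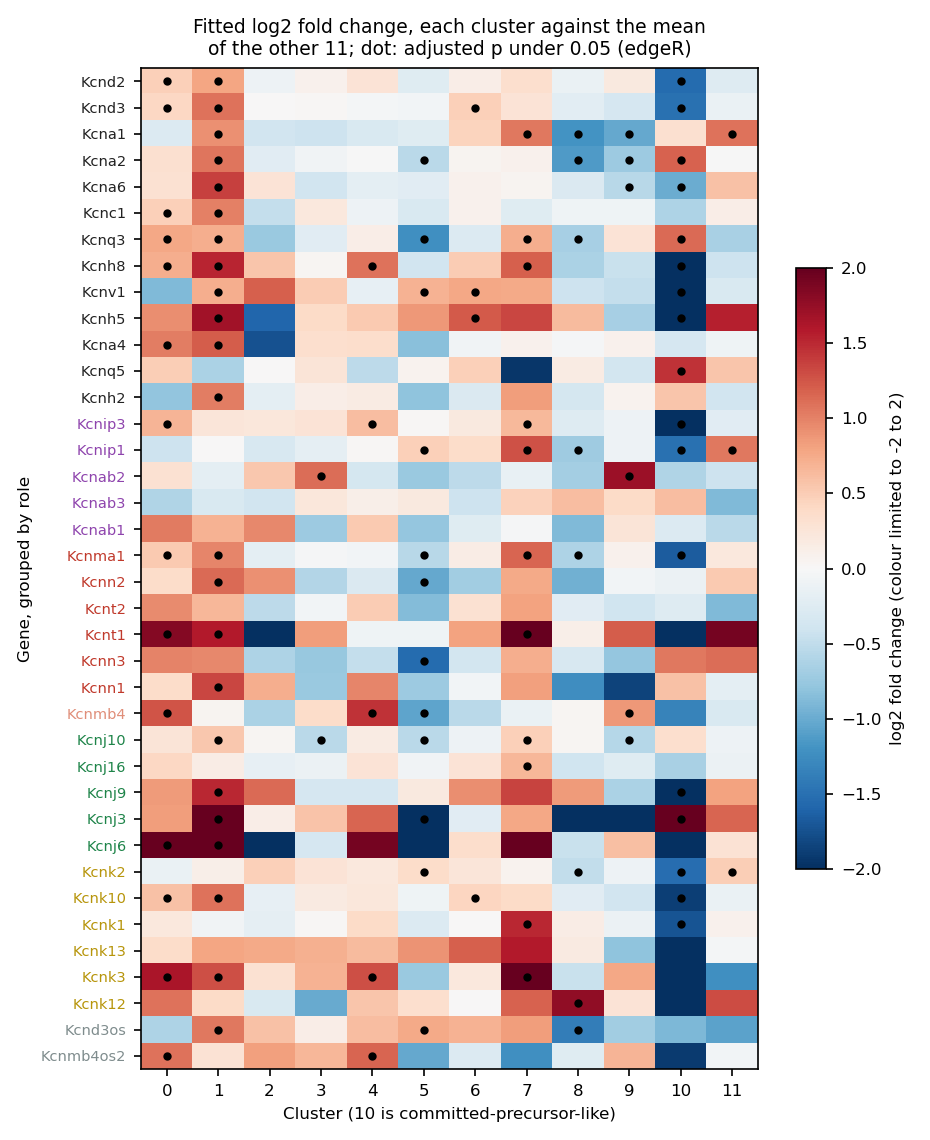
Fitted log2 fold change of 38 of the 41 tested Kcn genes (rows, grouped and coloured by role) in each of 12 clusters (columns) against the mean of the other 11, with a dot where edgeR's adjusted p was under 0.05. Of the genes drawn, cluster 10 shows 13 lower and 4 higher calls, cluster 1 shows 23 higher and no lower calls, and colours are limited to log2 values of -2 to 2.

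The committed-precursor-like cluster had the lowest family level of the 12 tested clusters. The summed Kcn level was 999 CPM in pool 1 and 1184 in pool 2, which is 0.517 ± 0.0619 (SD, n = 2) of the mean of the other 11. At 2000 UMIs a cell of this cluster held a mean of 1.73 and 1.83 members, against 3.76 and 3.65 over all cells. Of the 41 members tested, 16 were lower and 4 higher, 48.8% in all, where 20.9% of all genes were called (10.9% higher and 9.93% lower). The median log2 fold change was -1.34, or -1.0 with 3 members without a count set at their bound, against -0.03 over all genes. By role, 9 of 16 voltage-gated pore genes were lower and 3 higher, 2 of 5 accessory subunits were lower, 3 of 6 two-pore-domain genes were lower, and of 5 inward rectifiers 1 was lower and 1 higher.

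Kcnip3 and its pore partners fell together. Kcnip3 stood at 48.0 CPM in pool 1 and 97.1 in pool 2, against 259 to 609 and 276 to 611 in the other 11 clusters, so the ranges did not overlap in either pool. Its log2 fold change was -2.33 (SE 0.22, edgeR adjusted p = 6.54e-11). Kcnd2 stood at 60.9 and 71.6 CPM, below the 153 to 382 and 164 to 338 of the other clusters, with a log2 fold change of -1.54 (SE 0.19, edgeR adjusted p = 2.21e-08). Kcnd3 stood at 35.1 and 39.2 CPM against 80.7 to 243 and 84.6 to 233, with a log2 fold change of -1.50 (SE 0.27, edgeR adjusted p = 3.4e-05). Kcnip3, Kcnd2 and Kcnd3 were thus below every other tested cluster in both pools. The share of all genes that lie outside the range of the other clusters in both pools was not counted, here or for the members below. Kcnip1, a further Kcnd partner, was at 10.5 and 29.0 CPM against 16.9 to 68.4 and 37.8 to 146 (log2 fold change -1.49, SE 0.51, edgeR adjusted p = 0.0322).

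The leak channels fell as well. Kcnk2 stood at 62.1 and 64.7 CPM, against 119 to 235 and 138 to 258 elsewhere (log2 fold change -1.52, SE 0.20, edgeR adjusted p = 1.34e-07). Kcnk10 was at 22.3 and 18.7 CPM against 51.6 to 142 and 31.0 to 113, and fell by 1.88 on the log2 scale. Kcnk1 was at 11.7 and 22.1 against 44.4 to 97.5 and 27.3 to 161, and fell by 1.73. For each of the 3 the cluster lay below the range of the other clusters in both pools. Kcnk3 and Kcnk12 had no count in the cluster; with 3 counts over the pools together taken as the floor they were at least 3.29-fold and 1.93-fold lower, and neither was called.

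Kcna6, a further delayed rectifier, was at 15.2 and 27.3 CPM against 27.9 to 124 and 38.2 to 117 (log2 fold change -1.0, SE 0.32, edgeR adjusted p = 0.0213). Kcnma1, the large-conductance calcium-activated pore, was at 18.7 and 23.9 CPM against 30.3 to 102 and 32.9 to 138 (log2 fold change -1.67, SE 0.41, edgeR adjusted p = 0.00195). Both lay below the other clusters in both pools. A further 4 calls rest on few molecules. Kcnv1, a silent subunit that modifies other voltage-gated channels, had 3 and 1 UMIs and was at 3.51 and 1.70 CPM against 5.09 to 22.1 and 8.26 to 34.2. Kcnh5, an Eag-type channel, had 1 UMI in each pool and was 8.52-fold lower than the mean of the others (counting interval 2.36 to 70.4). Kcnh8 had 2 and 1 and was 11.2-fold lower (3.82 to 54.1), and Kcnj9, a G-protein-gated inward rectifier, had 1 and 0 and was 9.78-fold lower (1.75 to 386). The calls of Kcnv1 and Kcnj9 were each lost under 3 of 10 alternative settings, with edgeR or DESeq2 adjusted p from 0.00774 to 0.0933 for Kcnv1 and from 0.0328 to 0.0712 for Kcnj9.

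The 4 that rose include a delayed rectifier, M-current genes and a G-protein-gated inward rectifier. Kcnj3, which forms channels with Kcnj9 or Kcnj6, was at 32.8 CPM in pool 1 and 18.7 in pool 2 on 28 and 11 UMIs, where the other 11 clusters held 0 to 10.7 and 0.386 to 5.71. The cluster lay above all of them in both pools, with a log2 fold change of 3.93 (SE 0.56, edgeR adjusted p = 6.97e-07). Kcna2 was at 159 and 133 CPM against 40.1 to 177 and 38.9 to 125, so that 1 other cluster was higher in pool 1 and none in pool 2 (log2 fold change 1.18, SE 0.17, edgeR adjusted p = 1.2e-06). Kcnq3 was at 64.4 and 78.4 against 22.5 to 83.4 and 14.4 to 64.8, within the range in pool 1 and above it in pool 2 (log2 fold change 1.14, SE 0.25, edgeR adjusted p = 0.000623). Kcnq5 was at 17.6 and 18.7 against 2.53 to 11.3 and 3.78 to 9.46 (log2 fold change 1.45, SE 0.52, edgeR adjusted p = 0.0418), above the others in both pools. The call of Kcnq5 was lost under 2 of 10 alternatives (adjusted p from 0.00165 to 0.0548).

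Other members gave no call. Kcnj10 was at 206 and 220 CPM, within the 123 to 325 and 120 to 268 of the other clusters (log2 fold change 0.34, SE 0.15, edgeR adjusted p = 0.111), and Kcna1 at 62.1 and 104 (log2 fold change 0.32, SE 0.29, edgeR adjusted p = 0.50). Both lay within the range of the other clusters in both pools. Kcnj16 was at 21.1 and 15.3 CPM against 16.0 to 52.3 and 36.1 to 68.1, below the range in pool 2 only, and gave -0.65 (SE 0.34, edgeR adjusted p = 0.193). Kcnmb4 gave -1.34 (SE 0.56) and an edgeR adjusted p of 0.0919.

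**Figure D3:**
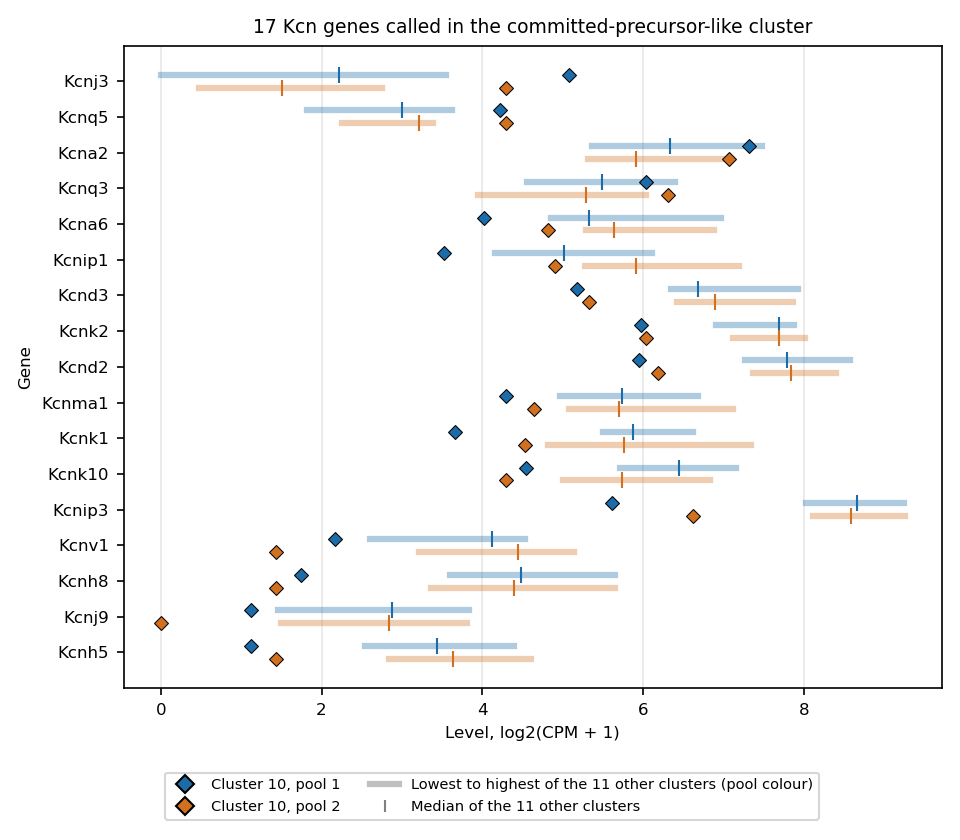
Level of 17 of the 20 Kcn genes called in the committed-precursor-like cluster, as log2(CPM + 1), for cluster 10 (diamonds, 1 per pool) and the lowest, median and highest of the other 11 tested clusters (bars and ticks, by pool). The 13 lower genes drawn lie left of the bars in both pools; Kcnj3 and Kcnq5 lie right of them in both, Kcna2 and Kcnq3 in pool 2.

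Of 28 other potassium-handling genes tested (pump subunits, cotransporters, ankyrins, Lgi proteins and regulators), 3 were higher and 6 lower in this cluster. That is 32.1% in all, where 20.9% of all genes were called (10.9% higher and 9.93% lower). Nedd4l, a ubiquitin ligase of ion channels, was at 48.0 and 37.5 CPM against 1.44 to 8.21 and 1.42 to 2.86 (log2 fold change 3.89, edgeR adjusted p = 1.11e-08). Lgi3, a secreted partner of axonal Kcna complexes, rose by 3.12, and Sgk1, a kinase that regulates channels, by 2.77 on the log2 scale. The sodium-potassium pump subunits Atp1b2 and Atp1b1 fell by 2.33 and 1.98, and Hcn2 fell by 2.40 and Lgi1 by 2.51. Atp1b2 was at 43.3 and 81.8 CPM against 250 to 413 and 173 to 544. The cotransporter Slc12a2 gave 0.49 (SE 0.22, edgeR adjusted p = 0.124).

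Levels in the small classes were set beside these. In the 13 and 14 microglia-like cells, whose 10 microglial markers summed to 31243 and 34142 CPM, the 8 oligodendrocyte precursor markers still summed to 2740 and 2783 CPM, against 10381 and 9773 in the other glioma clusters. There Kcnip3 was at 107 CPM (43.1 to 221) and 162 (103 to 243), and Kcnd2 at 91.8 (33.7 to 200) and 63.4 (29.0 to 120). Kcnip3 in the committed-precursor-like cluster was at 48.0 CPM (34.5 to 65.1) and 97.1 (73.5 to 126). Its interval thus overlapped the microglia-like interval in both pools, though the value itself lay below that interval in pool 2. Kcnd2 there, at 60.9 and 71.6 CPM, was within the microglia-like interval in both pools. In the oligodendrocyte-like cells of pool 2 both were lower, at 25.6 CPM (10.3 to 52.7) and 29.2 CPM (12.6 to 57.6). The part of free RNA or of doublets in these low levels was not tested. By share of thinned cells, Kcnip3 was found in 54.1% and 52.3% of the other glioma cells and in 10.0% (3.76 to 20.5) and 25% (12.1 to 42.2) of committed-precursor-like cells. In microglia-like cells that share was 28.6% of 7 cells and 25% of 12. Median depths before thinning were 7289 and 11209, 12474 and 14536, and 2096 and 6985.5 UMIs in the 3 classes.

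Kcnd2 was found in 38.2% and 34.4% of other glioma cells and in 10.0% and 5.56% of committed-precursor-like cells; Kcnk2 in 33.0% and 34.1% against 13.3% and 11.1%. Kcnj10 was found in 34.2% and 31.4% against 35% and 30.6%, and in 0 of 7 (exact 95% limit 41.0%) and 16.7% of microglia-like cells. Kcna2 was found in 16.5% and 12.4% against 21.7% (12.1 to 34.2) and 27.8% (14.2 to 45.2), and in no microglia-like cell of either pool, which allows up to 41.0% and 26.5%. Kcnj3 was found in 0.953% and 0.499% against 8.33% (2.76 to 18.4) and 5.56% (0.680 to 18.7). The shares thus moved in the direction of the levels for Kcnd2, Kcnk2, Kcna2 and Kcnj3, with wide intervals for the 60 and 36 committed-precursor-like cells.

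Kcna1 was set apart by the oligodendrocyte-like cells. It reached 574 CPM (430 to 751, 53 UMIs) in the 4 cells of pool 1 and 1502 CPM (1361 to 1655, 411 UMIs) in the 19 of pool 2, where the other glioma clusters together stood at 66.1 and 85.2 CPM and no tested cluster exceeded 130 and 181. It was found in 75.0% (19.4 to 99.4) and 94.7% (74.0 to 99.9) of thinned cells, against 13.1% and 16.2% of other glioma cells. Kcnj10 was at 238 (149 to 361) and 545 CPM (461 to 639) in these cells and at 187 and 173 in other glioma clusters. Kcnip3 was at 75.8 and 25.6, Kcnd2 at 54.1 and 29.2, and Kcnj3 had no count (upper 95% limits 39.9 and 13.5 CPM). The 10 oligodendrocyte markers summed to 95714 and 107262 CPM there. With under 20 cells in each pool no test was made.

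**Figure D4:**
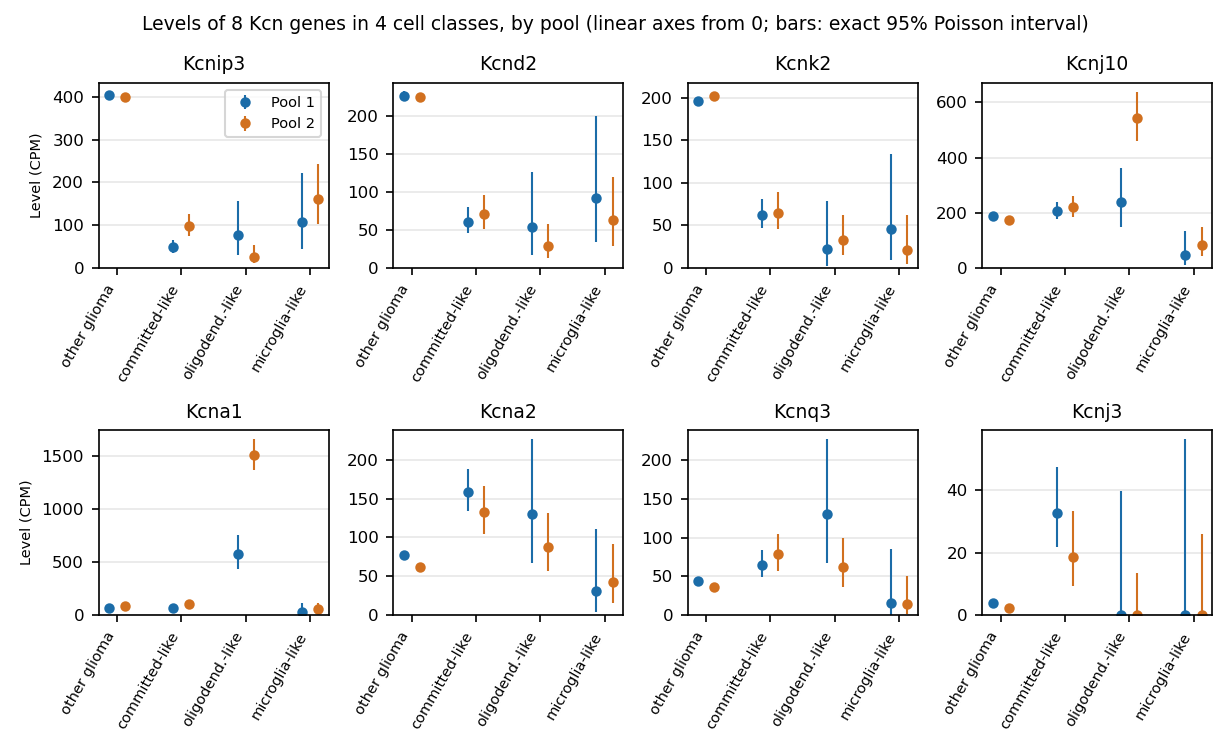
Level of 8 Kcn genes in CPM, on linear axes from 0, in the other glioma clusters, the committed-precursor-like, the oligodendrocyte-like and the microglia-like cells, with 1 point per pool and exact 95% Poisson intervals of counting error. Kcnip3, Kcnd2 and Kcnk2 are highest in the other glioma clusters, Kcna1 and in pool 2 Kcnj10 in the oligodendrocyte-like cells, and Kcna2 and Kcnj3 are higher in the committed-precursor-like than in the other glioma cells.

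In microglia-like cells the leak channel Kcnk13, which sets the resting potential of microglia, was at 76.5 CPM (24.9 to 179) in pool 1 and 14.1 (1.71 to 50.9) in pool 2, on 5 and 2 UMIs. The other glioma clusters stood at 7.26 and 7.55 CPM. The interval lay above that level in pool 1 and spanned it in pool 2.

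Cluster 1, with 968 and 612 cells, had the highest family level, 3304 and 3102 CPM. Of 41 members tested 26 were higher and none lower, 63.4%, where 54.3% of all genes were called (28.1% higher and 26.1% lower); the median log2 fold change was 0.96 against 0.08 over all genes. Called were 15 of 16 voltage-gated pore genes and none of 5 accessory subunits of voltage-gated channels. Kcnd2 was at 382 and 338 CPM against 60.9 to 310 and 71.6 to 278 (log2 fold change 0.79) and Kcna6 at 124 and 117 against 15.2 to 77.5 and 27.3 to 74.0 (1.36). Kcnip3 gave 0.24 (SE 0.13, edgeR adjusted p = 0.104), Kcnk2 0.12 and Kcnk1 -0.07. The pore genes Kcnd2 and Kcna6 thus stood above all other tested clusters in both pools, while Kcnip3, the partner of Kcnd2, lay within the range. By size of fitted change the leading calls were Kcnj6 at 2.20, Kcnj3 at 1.99, Kcnh5 at 1.68 and Kcnt1 at 1.59. By pool, with a prior count of 2, Kcnj3 gave 1.34 and 1.15, Kcnh5 1.12 and 1.44, and Kcnt1 0.60 and 0.99. For Kcnj6 pool 1 held 27 UMIs and pool 2 held 1, and without pool 1 the sign turned (-0.67). The call of Kcnj6 was lost under 1 of 5 alternatives (adjusted p from 0.00905 to 0.211) and that of Kcnt1 under 4 of 7 (0.0119 to 0.111).

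These cells also differ in RNA. The nuclear RNA Malat1 made up 107719 and 113304 CPM in cluster 1 against 19845 to 63801 in the other tested clusters, median depth was 3021.5 and 2526.5 UMIs, and the median mitochondrial share was 4.80% and 4.27%. Across genes, which are not independent replicates, the fold change in cluster 1 went with the length of the gene over all 10804 genes with a length (Pearson's r 0.41) and hardly over the 41 members (0.04). The second value sets members against each other, not against all genes. The part of depth, nuclear RNA and gene length in the higher Kcn levels was not tested. Without cluster 1 and the shallow cluster 2, the counts over the other clusters were 65 higher and 31 lower, and those of the committed-precursor-like cluster 5 higher and 13 lower.

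Cluster 0 (132 and 184 cells, led by Rph3a and Unc13c) had 16 members higher and none lower, 39.0%, where 17.1% of all genes were called (9.35% higher and 7.70% lower). They included Kcnd2, Kcnd3 and Kcnip3; Kcnip3 was at 478 and 611 CPM and rose by 0.68 on the log2 scale (SE 0.12, edgeR adjusted p = 0.000155). Kcnmb4 was at 43.1 and 74.1 CPM against 11.4 to 49.5 and 10.2 to 79.8, and rose by 1.25 (SE 0.21, edgeR adjusted p = 7.01e-05). Kcnj6 (2.43), Kcnt1 (1.83) and Kcnk3 (1.63) had larger fitted changes on 25, 37 and 60 UMIs over both pools. By pool, with a prior count of 2, these were smaller: 1.29 and 1.22 for Kcnj6, 1.43 and 0.68 for Kcnt1, and 1.22 and 1.18 for Kcnk3. Kcnmb4 gave 0.60 and 1.55 by that measure. Kcnj6, Kcnt1 and Kcnk3 lost their call under 3 of 5, 4 of 8 and 1 of 8 alternatives (highest adjusted p = 0.146, 0.0834 and 0.0537), each of them without the pool as a block. Cluster 0 had the highest Malat1 level of the tested clusters after cluster 1, 63801 and 59362 CPM, and its fold change went with gene length with r 0.25 over all genes and 0.24 over the 41 members; the part of this in its calls was not tested.

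Cluster 7 (87 and 167 cells) was led by the homeobox genes Meox1, Irx5 and Irx3, the Hoxa-locus RNA Hotairm1 and the astrocyte enzyme Aldoc. It had 12 members higher and none lower, 29.3%, where 7.99% of all genes were called (5.56% higher and 2.42% lower). Kcnk1, a two-pore-domain channel known from astrocytes, was at 97.5 and 161 CPM against 11.7 to 74.8 and 22.1 to 58.8, above every other tested cluster in both pools (log2 fold change 1.51, SE 0.17, edgeR adjusted p = 8.22e-08). Kcnip1 was at 68.4 and 146 CPM against 10.5 to 42.5 and 29.0 to 115, also above every other cluster (1.28, SE 0.22, edgeR adjusted p = 8.7e-05). Kcnk3, an acid-sensitive leak channel, was at 29.1 and 11.8 CPM against 0 to 10.4 and 0 to 13.7, above the range in pool 1 only (2.31, SE 0.52, edgeR adjusted p = 0.00319). Kcnj10 and its partner Kcnj16 rose by 0.47 and 0.67. Kcnt1 (2.18) had 2 and 21 UMIs and lost its call under 5 of 8 alternatives (adjusted p from 0.0374 to 0.103). Kcnip1 lost its call under 1 of 8, without the pool as a block (adjusted p from 1.13e-11 to 0.0614). Cluster 7 held 8 astrocyte markers at a sum of 1985 CPM over both pools, against 260 to 1446 in the other tested clusters, and their part in these values was not tested.

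Cluster 4 (611 and 401 cells), led by C1ql1 and Rph3a, had 5 members higher and none lower, 12.2%, where 16.0% of all genes were called (11% higher and 4.97% lower). Kcnmb4, which slows and shifts the gating of Kcnma1, was at 49.5 and 79.8 CPM and above all other tested clusters in both pools (log2 fold change 1.45, SE 0.17, edgeR adjusted p = 3.22e-07). Its opposite-strand neighbour Kcnmb4os2 was at 9.23 and 15.7 CPM and rose by 1.17, and the 2 share 716 bases. The pore gene Kcnma1 was not called there. Kcnh8 rose by 1.09, Kcnip3 by 0.61 and Kcnk3 by 1.29. Kcnk3 lost its call under 4 of 8 alternatives (highest adjusted p = 0.116) and Kcnmb4os2 under 1 of 8 (highest adjusted p = 0.0913).

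Cluster 5 (465 and 399 cells) was led by Hba-a1, S100a10, Vim and Lgals1. It had 4 members higher and 8 lower, 29.3%, where 29.6% of all genes were called (18.4% higher and 11.3% lower). Kcnq3 was at 22.5 and 14.4 CPM, the lowest of the 12 clusters in both pools (log2 fold change -1.22, SE 0.18, edgeR adjusted p = 3.24e-06), and Kcnmb4 at 11.4 and 11.9 (-1.05, SE 0.25, edgeR adjusted p = 0.00115). Kcnj10 was at 123 and 135 CPM and fell by 0.54. Kcnj3 had 4 and 3 UMIs, a level 9.42-fold below the mean of the others, and Kcnn3 had 4 and 6, 5.17-fold below; both lost their call with the mitochondrial share held to 10%, Kcnj3 under that 1 of 8 alternatives and Kcnn3 under 4 of 8 (adjusted p from 0.000108 and 0.000496 to 1). Higher were Kcnd3os (0.76), Kcnv1 (0.70), Kcnip1 (0.48) and Kcnk2 (0.36). The first 3 of these lost their call under 3, 2 and 5 of 8 alternatives (highest adjusted p = 0.0937, 0.0903 and 0.379).

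Cluster 6 (441 and 706 cells), led by Akap12, had 5 members higher and none lower, 12.2%, where 3.72% of all genes were called (2.42% higher and 1.29% lower). Kcnd3 was at 151 and 147 CPM against 35.1 to 243 and 39.2 to 233 (log2 fold change 0.48, SE 0.10, edgeR adjusted p = 0.00329). Kcnh5 rose by 1.23 and Kcnv1 by 0.78, and these lost their call under 4 and 3 of 8 alternatives (highest adjusted p = 0.167 and 0.236). Kcnd3 lost its call under 1 of 8, without the pool as a block (adjusted p from 5.6e-05 to 0.111). Kcnk10 rose by 0.43 at 93.4 and 63.9 CPM.

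Kcna1 and Kcna2 were lower in both clusters made up mostly of cycling cells, clusters 8 and 9. Cluster 8 (203 and 173 cells), led by the mitotic genes Cdc20, Ccnb1 and Cenpa, had 1 member higher and 7 lower, 19.5%, where 21.7% of all genes were called (14.3% higher and 7.44% lower). Kcna1 was at 34.4 and 28.2 CPM and Kcna2 at 40.1 and 38.9, below all other tested clusters in both pools (log2 fold changes -1.20, SE 0.21, and -1.13, SE 0.15; edgeR adjusted p = 3.58e-05 and 1.98e-07). Kcna6 gave -0.29 there (SE 0.16, edgeR adjusted p = 0.207). Kcnk2 was at 119 and 138 CPM and fell by 0.50. Kcnd3os fell by 1.39 on 10 and 15 UMIs, and Kcnip1 by 0.71, the latter losing its call under 2 of 7 alternatives (adjusted p from 0.00313 to 0.371). Kcnk12 was the gene that rose, at 13 and 3.76 CPM (41 and 12 UMIs; log2 1.92 in pool 1 and 0.40 in pool 2).

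Cluster 9 (106 and 99 cells), led by histone genes, had 2 members higher and 4 lower, 14.6%, where 19.9% of all genes were called (14.8% higher and 5.03% lower). Kcna1 and Kcna2 fell by 1.03 and 0.72, Kcnj10 by 0.57 at 132 and 131 CPM, and Kcna6 by 0.56. Kcnab2, the cytosolic beta subunit of Kcna channels, was at 17 and 21.2 CPM against 3.2 to 12.2 and 3.34 to 9.97, above all others in both pools (log2 fold change 1.71, SE 0.31, edgeR adjusted p = 3.56e-05). Kcnmb4 rose by 0.86. Its call was lost under 1 of 7 alternatives (adjusted p from 0.000391 to 0.0530) and that of Kcna6 under 2 of 7 (0.0153 to 0.124). Cluster 3 (176 and 133 cells), led by the replication genes Hells, Ung and Mcm3, had 1 member higher and 1 lower, 4.88%, where 10.7% of all genes were called (8.75% higher and 1.94% lower). Kcnab2 was the higher at 12.2 and 9.97 CPM (1.11, SE 0.32, edgeR adjusted p = 0.0182) and Kcnj10 the lower at 138 and 120 CPM (-0.54, SE 0.12, edgeR adjusted p = 0.00171). None of the Kcna genes tested was called in cluster 3: Kcna1 gave -0.41, Kcna2 -0.07 and Kcna6 -0.39 (edgeR adjusted p = 0.197, 0.813 and 0.140).

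Within clusters, cycling and non-cycling cells were compared in a separate fit. Clusters 3, 5 and 6 had enough cells of each state, and 21 members were tested. None was called by edgeR, where 1.08% of 7531 genes were called (0.823% higher and 0.252% lower); 5 had an unadjusted p under 0.05. DESeq2 also called 0, with 3 under 0.05 unadjusted. Of the 5, Kcnip1 gave a log2 fold change of -0.93 (SE 0.27, edgeR adjusted p = 0.0761), Kcnk2 -0.36, Kcna1 -0.54, Kcnk1 -0.58 and Kcnma1 -0.58, and each was below 0 in both pools. Kcna2, low in cluster 8, gave 0.24 (SE 0.21, edgeR adjusted p = 0.765) here, in a fit with 5 residual degrees of freedom. Whether this differs from the result between clusters was not tested.

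Cluster 11 (48 and 87 cells), led by interferon-response genes with Vegfa and Gja1, had 3 members higher, 7.32%, where 4.71% of all genes were called (4.14% higher and 0.569% lower). Kcna1 was at 90.3 and 161 CPM (log2 fold change 1.08, SE 0.20, edgeR adjusted p = 0.000252), Kcnk2 at 215 and 258 (0.49, SE 0.13, edgeR adjusted p = 0.0143) and Kcnip1 at 26.3 and 115. Gja1 and Aqp4, both astrocyte markers, were among the 10 leading genes of cluster 11. Its astrocyte markers summed to 1446 CPM over both pools, below cluster 7 alone among the tested clusters, and its oligodendrocyte markers to 218 CPM, below cluster 10 alone; their part in the level of Kcna1 was not tested. The call of Kcnip1 (1.06) rested on pool 2: without pool 2 it was -0.22, and it was lost under 2 of 8 alternatives (adjusted p from 1.93e-06 to 0.230). Cluster 2 (190 and 246 cells), with median depths of 1194 and 1421 UMIs, had no member called by edgeR, where 1.73% of all genes were called (1.51% higher and 0.220% lower), and 3 with an unadjusted p under 0.05.

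**Figure D5:**
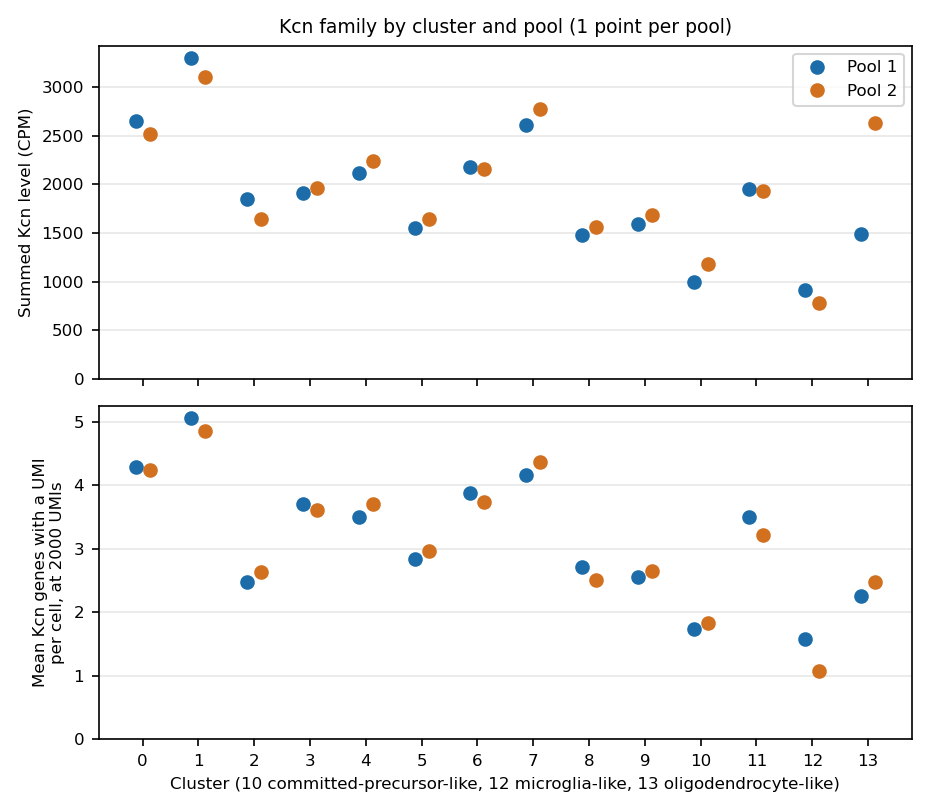
Summed Kcn level in CPM (top) and mean number of Kcn genes with a UMI per cell thinned to 2000 UMIs (bottom), by cluster, with 1 point per pool and axes from 0. Cluster 1 is highest in both panels, and the committed-precursor-like cluster 10 is the lowest of the tested clusters 0 to 11.

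Across the 12 tested clusters the order of the high members differed. The span of Kcnip3 was 48.0 to 609 CPM in pool 1 and 97.1 to 611 in pool 2, that of Kcnd2 was 60.9 to 382 and 71.6 to 338, and both were lowest in cluster 10. Kcnk2 spanned 62.1 to 235 and 64.7 to 258; outside clusters 8 and 10 it stayed between 157 and 258 in both pools. Kcnj10 spanned 123 to 325 and 120 to 268, lowest in clusters 5 and 3 and highest in clusters 1 and 7. Kcna1 spanned 34.4 to 130 and 28.2 to 181, lowest in the mitotic cluster 8 in both pools.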

How the data were processed

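The authors deposited 2 tables of UMI counts, genes by cell barcodes, from 3′ single-cell libraries; the submitters' processing notes name Cell Ranger 6.0.2 and the builds GRCm38 and mm10, and whether counting used strand is not given in the sources used here. Of 3843 and 3650 barcodes, 337 and 372 with fewer than 500 genes or over 15% of mitochondrial counts were removed; 4 barcodes occurred in both pools. Each count was drawn into a training set with a chance of 0.5. The training counts were clustered (scanpy 1.11.5, 1000 variable genes, 30 components, 15 neighbours, Leiden resolution 0.8) without Kcn genes, markers or cycling genes. For each cluster and pool the other counts were added up, given at least 20 cells in each pool, and these sums were tested with edgeR 4.0.16 in R 4.3.3 (TMM, quasi-likelihood, pool as block, Benjamini-Hochberg adjusted p under 0.05). Levels use full counts; CPM divides by the UMIs of the 16859 genes in both tables. Intervals are at 95%, cover counting error only and are exact. The SE of a log2 fold change was worked back from edgeR's F statistic, as the size of the change over the square root of F. Cells were called cycling from a fixed list of core genes, left out where too shallow.

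Scrublet scores called 0 and 2 cells doublets where 2.80% and 2.62% were expected, and why so few were called was not tested. The calls were not used and no doublet was removed, so doublets may remain. Leaving out the 98 and 86 cells of highest score was an alternative. Other alternatives were DESeq2 1.42.0, no filter, no pool block, all counts, a mitochondrial limit of 10%, other resolutions (0.5 and 1.2) and leaving out pools or clusters. A floor of 3 counts stood for a count of 0.

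Genes named are the 20 members of highest level, a fixed list of glial, tumour and immune channels, up to 8 calls each way in the committed-precursor-like cluster and up to 4 each way in the others, by size of change, plus up to 8 in the cycling comparison. Other names were chosen after their values were seen. Some genes that this rule takes in stay in the counts but are not reported here by name or drawn. Members and lists were chosen with earlier results of these data known. The cluster fit was also run on simulated counts in which only the committed-precursor-like cluster differed, a simpler setting than these data. Its outcome is not given here.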

Additional observations from a re-analysis of the deposited data

Results flagged for a closer look

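Of the Kcn genes outside the 72 members, 6 were listed in 1 pool only and so entered no comparison. With no control samples they were set against the 3 counts that a count of 0 allows. Above it were Kcne4 with 10 UMIs, Kcnk6 with 13 and Kcnh3 with 7, all in pool 2, and Kcnh6 with 8 in pool 1, found in 7, 6, 7 and 5 barcodes. Kcnj5 and Kcnmb3 had 3 UMIs each in pool 1 and were at that limit.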

How the results depend on the processing

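Over the alternatives run, the committed-precursor-like cluster had 4 to 5 members higher and 13 to 21 lower, and 17 to 20 of its 20 calls were kept. Over all clusters 28 to 53 values were lower and 48 to 96 higher. In the reported fit 79 were higher, and 48 with no replicate block, that is, without the pool as a block. The cause was not tested. Alternatives that leave out clusters or change the resolution do not cover the same comparisons, so their totals are not like for like. By cycling state 1 member (Kcnip1) was lower without the filter on low counts, which tests 68 members, where none was otherwise. Members found in at least 10% of cells numbered 12 after thinning and 21 not thinned, since deeper cells show more genes. The summed level of the committed-precursor-like cluster was 0.517 of the others, 0.597 without Kcnip3 and 0.473 to 0.561 with 1 pool left out. Without replicate 1 (pool 1) Kcnj6 turned in cluster 1 (-0.67, where it was 1.61 without replicate 2), and without replicate 2 Kcnip1 turned in cluster 11 (-0.22, where it was 1.27 without replicate 1). With 1 pool the cluster comparisons have no residual degrees of freedom, so these are values with no test. The fold changes with 1 pool left out are differences of log2 CPM within the other pool, with a prior count of 2. They are not refits, while the values they are set against come from the fit. Of 56 named results of a gene in a cluster, 21 moved in size without replicate 1 and 18 without replicate 2, beside those that turned. Kcnt1 in cluster 0 was 1.83 in the fit, 0.68 without replicate 1 and 1.43 without replicate 2. The part of the change of measure in these moves was not tested. Of the same 56, 17 lost their call with DESeq2, 19 without the block, 2 without the filter and 4 with all counts. Depth limits the low members, 31 of which were not tested.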
